A study of Mus musculus with 12 samples.

Results

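De novo lipogenesis is the synthesis of fatty acids from carbohydrate carbon, and 10 genes of this pathway were followed in the liver of mice on 4 diets. They were taken by gene symbol from the expression table, namely *Srebf1* and *Mlxipl*, which encode the transcription factors SREBP-1 and ChREBP, and the 8 genes *Acly*, *Me1*, *Acaca*, *Fasn*, *Elovl6*, *Scd1*, *Thrsp* and *Pnpla3*, which are known as their targets. All 10 were found among the 54532 genes listed, each once, and all 10 were among the 11083 genes whose mean over the 12 mice reached 1 FPKM (fragments per kilobase of a gene, relative to the size of the library), the level from which genes were tested.

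In the liver, citrate exported from mitochondria is cleaved to acetyl-CoA, which is carboxylated to malonyl-CoA and polymerised to palmitate with reducing power from NADPH. Palmitate is then elongated and desaturated, mainly to oleate, and stored as triglyceride or exported. Insulin drives the pathway largely through SREBP-1c and glucose largely through ChREBP, and the liver switches it on after feeding and off in fasting.

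Male C57BL/6J mice were given 1 of 4 diets for 26 weeks from 5 weeks of age, and liver RNA of 3 mice per diet was sequenced. The ND group ate a normal diet, and the control group a high-fat diet with no supplement. The HYA and LA groups ate the high-fat diet with 1% of a fatty acid added. LA is linoleic acid, and HYA (10-hydroxy-*cis*-12-octadecenoic acid) is the product that gut lactic acid bacteria make from it by adding water to 1 of its double bonds. The labels name no genetic change, so that diet was the only labelled difference between groups. Normal and high-fat diet were separate commercial diets, while control, HYA and LA shared the same high-fat base.

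Each mouse had 17169064 to 25220880 fragments assigned to genes. The members were well covered, with at least 2746 fragments in every mouse, except *Pnpla3*, which had 9 to 664. Pearson's r between mice of 1 group was 0.983 to 0.990 over the tested genes. Of 10 hepatocyte markers 9 were found, and their summed level in FPKM ran from 43312 to 45009 with the normal diet, from 28753 to 32885 with the high-fat diet alone, from 37513 to 39203 with HYA and from 31826 to 32448 with LA, so the tissue carried its defining transcripts in every mouse while their level differed between diets. Markers of stellate cells and fibroblasts (8 genes) summed to 34.0 to 44.5 FPKM, 72.7 to 94.9 FPKM, 59.0 to 72.9 FPKM and 78.8 to 95.03 FPKM in the same order of groups. In whole liver, fewer cells of a type and less RNA per cell cannot be told apart, and the part of cell composition in the results for the members was not tested. Of 7 adipocyte markers, the defining *Adipoq*, *Lep*, *Plin1* and *Retn* had at most 6 fragments in any mouse. The sum of this list was nevertheless higher on the high-fat diets (35.9 to 76.5 FPKM) than in ND-fed mice (12.0 to 13.6 FPKM), and on those diets most of it came from *Cidea*, which encodes a lipid droplet protein.

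Members were compared on log2(FPKM + 1) with limma, all 12 mice in 1 fit, and a member was counted as higher or lower when its p-value, adjusted over all 11083 genes by the Benjamini-Hochberg method, was under 0.05. On this scale a change of a gene with low FPKM is understated. Values are given per mouse in the order of replicates 1, 2 and 3.

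To show what lies before the start of these genes, the promoters in the RefSeq annotation (GRCm38.p6) were searched on both strands, over the 250 bases before each start. Of the 10 members, 9 had an entry, with 13 windows in all because *Srebf1* had 3 annotated starts and *Mlxipl* and *Me1* had a pair each. *Scd1* had none. A sterol response element, written as TCACNCCAC, was found in 1 window, of *Mlxipl*, against 1.05% of all 32817 windows. An E-box (CACGTG), the core of ChREBP and USF sites, was likewise found only before the other start of *Mlxipl*, against 6.02% of windows. The CCAAT box (CCAAT), the site of NF-Y, was present in 7 of the 13 windows, of *Srebf1*, *Mlxipl*, *Me1*, *Fasn*, *Thrsp* and *Pnpla3*, against 33.8% of all windows, and the GC box (GGGCGG), the site of Sp1, in 6 of the 13, of *Srebf1*, *Mlxipl*, *Acly*, *Me1* and *Pnpla3*, against 32.7%. Windows of 1 gene are not independent of each other. A strict form of the carbohydrate response element (a pair of exact CACGTG spaced by 5 bases) was in none of all 32817 windows. Its lack before the members therefore says nothing about them, and looser forms of the element were not searched. The LXR element (a pair of AGGTCA spaced by 4 bases) was in 0.0152% of windows and in none of the members. A match is a description of letters, and the lack of a match says only that these letters are not in the window.

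The windows printed are those of *Mlxipl*, the member that was lower on the high-fat diet, and those of *Fasn* and *Pnpla3*, 2 members that were higher, each 5′ to 3′ on the strand of the gene and ending at the base before the start. Capitals mark the sterol response element, the E-box and CCAAT boxes, while GC boxes are left in lower case. The windows lie at chr5:135106641-135106890 (plus strand), chr5:135089640-135089889 (plus strand), chr11:120824548-120824797 (minus strand) and chr15:84167566-84167815 (plus strand).
*Mlxipl*, start within the gene: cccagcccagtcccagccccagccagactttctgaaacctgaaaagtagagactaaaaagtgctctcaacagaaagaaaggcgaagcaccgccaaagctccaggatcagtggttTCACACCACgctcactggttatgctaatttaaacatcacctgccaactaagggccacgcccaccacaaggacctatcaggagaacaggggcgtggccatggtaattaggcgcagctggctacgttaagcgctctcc
*Mlxipl*, start at the gene's 5′ end: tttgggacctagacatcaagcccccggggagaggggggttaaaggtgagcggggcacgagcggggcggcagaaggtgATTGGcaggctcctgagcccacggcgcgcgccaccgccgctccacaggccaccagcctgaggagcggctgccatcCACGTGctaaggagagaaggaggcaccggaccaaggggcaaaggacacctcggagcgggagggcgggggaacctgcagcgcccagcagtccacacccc
*Fasn*: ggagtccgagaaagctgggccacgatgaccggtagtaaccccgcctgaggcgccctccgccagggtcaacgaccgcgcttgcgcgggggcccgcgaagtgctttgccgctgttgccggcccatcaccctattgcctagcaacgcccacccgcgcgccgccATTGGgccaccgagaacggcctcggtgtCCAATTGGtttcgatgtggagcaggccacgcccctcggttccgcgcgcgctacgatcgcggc
*Pnpla3*: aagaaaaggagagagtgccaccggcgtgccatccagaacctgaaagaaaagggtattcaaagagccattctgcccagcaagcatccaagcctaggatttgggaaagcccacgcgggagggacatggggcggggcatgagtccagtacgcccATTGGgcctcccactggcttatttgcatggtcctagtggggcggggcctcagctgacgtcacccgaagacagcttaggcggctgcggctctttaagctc

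The first window of *Mlxipl* held TCACACCAC from -136 to -128 relative to the start, and the second CACGTG from -98 to -93, with an inverted CCAAT box from -173 to -169. In *Fasn*, 3 CCAAT boxes lay between -90 and -55, and the last pair overlapped on opposite strands as CCAATTGG. *Pnpla3* had a single inverted CCAAT box from -99 to -95. Of the 9 members with an entry, *Mlxipl* was thus the only one with TCACNCCAC or CACGTG in these windows. Each was in 1 of the 13 windows, against 1.05% and 6.02% of all windows, and other spellings were not searched. The only window of *Acaca* (chr11:84195188-84195437, plus strand) lay within the gene, which starts at 84129672. The bases before the 5′ end of *Acaca* were therefore not searched.

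Under the high-fat diet alone the enzymes of the pathway were expressed at higher levels than under the normal diet, whereas the transcription factors were not. In control against ND-fed mice 7 of the 10 members were higher (16.2% of all tested genes were), 1 was lower (19.1%) and 2 did not pass the test, so that 8 of 10 were changed against 35.3% of all tested genes (limma with Benjamini-Hochberg adjustment). The median log2 fold change of the members was 0.96, beside -0.04 over all tested genes. With the stricter rule of an absolute log2 fold change above 1, 5 members were higher (2.25% of all tested genes), namely *Acly*, *Me1*, *Fasn*, *Elovl6* and *Pnpla3*. No overlap between control and ND-fed mice was seen for 8 members, against 45.6% of all tested genes.

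*Srebf1* (ENSMUSG00000020538, GRCm38 chromosome 11, 60199089 to 60222581, minus strand) encodes SREBP-1, a membrane-bound factor that is cleaved to reach the nucleus. Its level was 130, 147 and 107 FPKM in ND-fed mice, 119, 119 and 63.9 FPKM in control mice, 76.8, 100.1 and 145 FPKM in HYA-treated mice and 88.7, 102 and 111 FPKM in LA-treated mice. The ranges of all 4 groups overlapped, and the widest spread lay within the control and the HYA group (coefficients of variation 31.6% and 32.5%). The log2 fold change of control against ND was -0.39 (standard error 0.26, 95% interval -0.97 to 0.20, limma adjusted p = 0.286). Gene-level values do not separate the SREBP-1a and SREBP-1c transcripts, which start at different first exons, and mRNA does not report on cleavage. *Rai1* overlaps *Srebf1* on the opposite strand, with fragments equal to 2.97% of those of *Srebf1*.

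*Mlxipl* (ENSMUSG00000005373, chromosome 5, 135089890 to 135138382, plus strand) encodes ChREBP, a factor activated by glucose metabolites. It stood at 75.8, 87.2 and 86.9 FPKM in ND-fed mice, 37.6, 44.0 and 46.2 FPKM in control mice, 61.4, 58.1 and 53.3 FPKM with HYA and 47.4, 47.0 and 41.9 FPKM with LA. All ND-fed mice lay above all HYA-treated mice, which lay above all control and LA-treated mice, and the last 2 groups overlapped. The mean of 83.3 ± 6.52 FPKM (SD, n = 3) under the normal diet fell to 42.6 ± 4.44 FPKM in control mice, a log2 fold change of -0.95 (standard error 0.09, limma adjusted p = 3.27e-05). The alpha and beta forms of ChREBP, which start at different first exons, are counted together here.

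**Figure D1:**
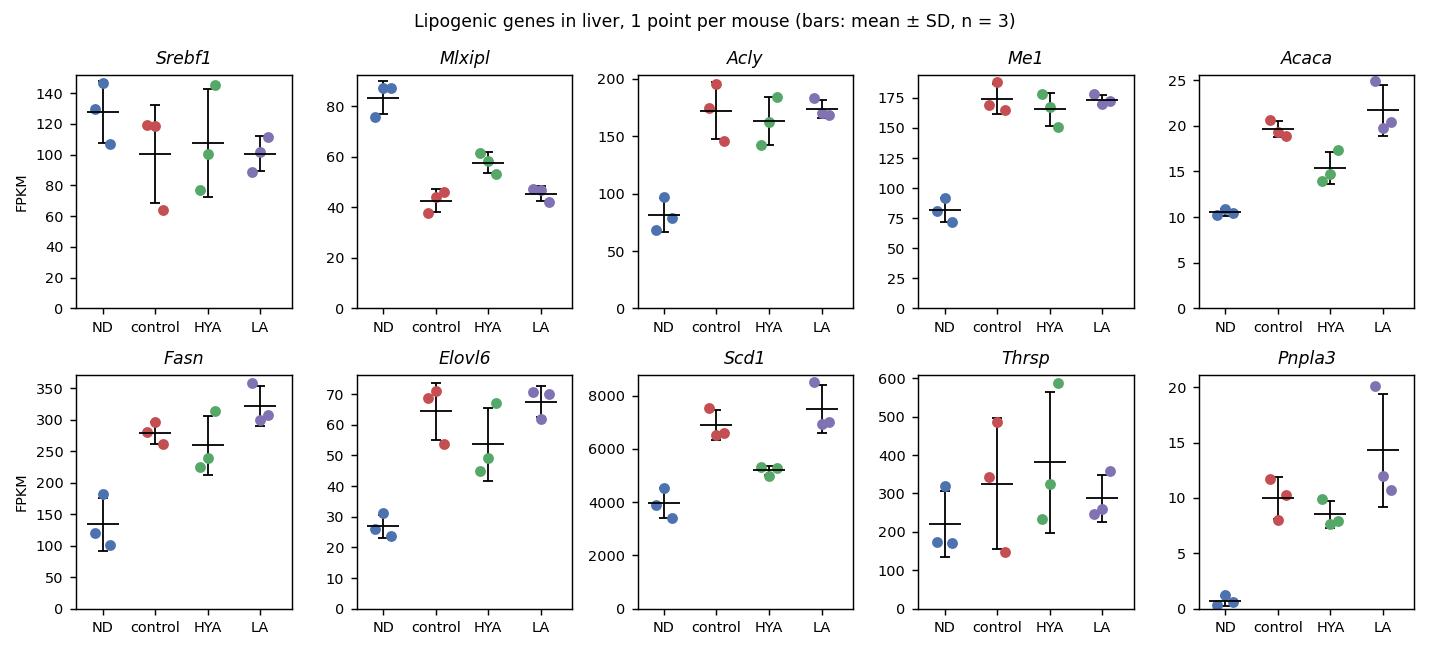
FPKM of the 10 lipogenic genes in each of the 12 livers, 1 panel per gene with its own linear axis from 0, 1 point per mouse, and a bar with whiskers for the mean ± SD of the 3 mice of a diet group. *Mlxipl* is lower in control mice (mean 42.6 FPKM) than under the normal diet (83.3 FPKM), *Acly*, *Me1*, *Acaca*, *Fasn*, *Elovl6*, *Scd1* and *Pnpla3* rise, and the points of *Srebf1* and *Thrsp* overlap between all groups.

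Both members that supply acetyl-CoA and NADPH rose. *Acly* (ENSMUSG00000020917, chromosome 11, 100476353 to 100528000, minus strand), ATP citrate lyase, makes cytosolic acetyl-CoA. It was at 67.9, 97.4 and 79.1 FPKM in ND-fed mice, 175, 196 and 146 FPKM in control mice, 143, 162 and 184 FPKM with HYA and 183, 169.8 and 168 FPKM with LA. Every mouse on a high-fat diet lay above every ND-fed mouse, and the 3 high-fat groups overlapped each other. *Me1* (ENSMUSG00000032418, chromosome 9, 86581371 to 86695953, minus strand), cytosolic malic enzyme, yields NADPH, and was at 81.0, 91.8 and 71.7 FPKM in ND-fed mice, 169, 189 and 165 FPKM in control mice, 178, 167 and 151 FPKM with HYA and 178, 169.8 and 172 FPKM with LA. Its separation was of the same kind. In control against ND the log2 fold change was 1.08 for *Acly* (standard error 0.14, limma adjusted p = 0.000237) and 1.09 for *Me1* (standard error 0.09, adjusted p = 1.48e-05).

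Fatty acid synthesis proper is carried by 2 large enzymes. *Acaca* (ENSMUSG00000020532, chromosome 11, 84129672 to 84401651, plus strand) encodes acetyl-CoA carboxylase 1, which makes malonyl-CoA and commits carbon to the pathway. Its values were tight, with 10.2, 10.9 and 10.4 FPKM in ND-fed mice, 20.6, 19.3 and 18.9 FPKM in control mice, 14.0, 14.7 and 17.3 FPKM with HYA and 24.9, 19.8 and 20.4 FPKM with LA. The HYA group lay above the ND group and below both other high-fat groups without overlap. *Acaca* differed by 0.84 on the log2 scale in control against ND (standard error 0.09, limma adjusted p = 8.33e-05). *Fasn* (ENSMUSG00000025153, chromosome 11, 120805846 to 120824547, minus strand), fatty acid synthase, was at 121, 182 and 101 FPKM in ND-fed mice, 280.2, 297 and 262 FPKM in control mice, 225, 239.6 and 313 FPKM with HYA and 358, 299 and 308 FPKM with LA. No ND-fed mouse reached the lowest mouse on a high-fat diet. The log2 fold change of *Fasn* in control against ND was 1.10 (standard error 0.19, limma adjusted p = 0.0013).

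Elongation and desaturation followed. *Elovl6* (ENSMUSG00000041220, chromosome 3, 129532355 to 129638495, plus strand) encodes the elongase that turns palmitate into stearate. It was at 26.1, 31.1 and 23.8 FPKM in ND-fed mice, 68.7, 70.9 and 53.8 FPKM in control mice, 44.8, 49.0 and 67.1 FPKM with HYA and 70.7, 61.9 and 70.2 FPKM with LA, with a log2 fold change of 1.22 in control against ND (standard error 0.16, limma adjusted p = 0.000191). The ND group again stood apart below all others. *Scd1* (ENSMUSG00000037071, chromosome 19, 44394451 to 44407709, minus strand) encodes stearoyl-CoA desaturase 1, which makes oleate and palmitoleate, and per length it was the most abundant of the 10 in every group. Its values were 3899, 4549 and 3421 FPKM in ND-fed mice, 7536, 6521 and 6613 FPKM in control mice, 5302, 4992 and 5298 FPKM with HYA and 8521, 6916 and 7012 FPKM with LA. As for *Acaca*, the HYA group sat between the ND group and the other high-fat groups and overlapped neither. *Scd1* was 1.74-fold as high in control as in ND-fed mice (log2 fold change 0.81, standard error 0.11, limma adjusted p = 0.000389).

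*Thrsp* (ENSMUSG00000035686, chromosome 7, 97412938 to 97417730, minus strand), the Spot 14 protein, is a cofactor of fatty acid synthesis that responds to thyroid hormone and carbohydrate. It was the most variable of the abundant members, at 173, 321 and 171 FPKM in ND-fed mice, 343, 486 and 147 FPKM in control mice, 233, 324 and 586 FPKM with HYA and 246, 260.0 and 358 FPKM with LA. The groups overlapped throughout, and the highest control mouse had 3.30 times the level of the lowest. Its log2 fold change in control against ND was 0.46 (standard error 0.44, 95% interval -0.53 to 1.44, limma adjusted p = 0.458).

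*Pnpla3* (ENSMUSG00000041653, chromosome 15, 84167837 to 84187236, plus strand) encodes a lipid droplet protein of the patatin-like family, whose human counterpart carries a common risk allele for fatty liver. Its difference between diets was the widest of the 10. It was nearly silent in ND-fed mice, at 0.331, 1.22 and 0.647 FPKM (9, 30 and 18 fragments), and stood at 11.7, 7.98 and 10.2 FPKM in control mice, 9.93, 7.66 and 7.94 FPKM with HYA and 20.1, 12.0 and 10.8 FPKM with LA. All 9 mice on a high-fat diet lay above all ND-fed mice. The mean was 13.6 times as high in control as in ND-fed mice, and the log2 fold change was 2.68 on the scale with a pseudocount of 1 (standard error 0.24, limma adjusted p = 1.91e-05) and 3.92 when recovered fragments were fitted with voom. *Mir6392*, a microRNA gene on the same strand within *Pnpla3*, had fragments equal to 3.38% of those of *Pnpla3*.

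The rank order per length was therefore steady across diets at its ends. *Scd1* was first and *Pnpla3* and *Acaca* were last in each of the 4 groups, while *Mlxipl* went from place 5 in ND-fed to place 8 in control mice. A synthase-to-factor ratio within a mouse, chosen after the values had been seen and made from them, restates the same contrast. *Fasn* over *Srebf1* was 0.929 to 1.24 in ND-fed, 2.35 to 4.11 in control, 2.16 to 2.93 in HYA-treated and 2.77 to 4.04 in LA-treated mice. *Fasn* over *Mlxipl* was 1.16 to 2.08 in ND-fed, 5.68 to 7.45 in control, 3.66 to 5.88 in HYA-treated and 6.37 to 7.56 in LA-treated mice.

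Scaling moved the size of the differences between control and ND but no call of a member. Rescaled to TPM, the median over all tested genes in control against ND moved from -0.04 to 0.17 on the log2 scale, and of the genes that were changed 83.8% were higher, beside 45.9% as deposited. The median of the members moved with it, from 0.96 to 1.21, and stood 1.00 above that of all genes as deposited and 1.04 above it as TPM. As TPM, *Acaca* (1.11) and *Scd1* (1.04) also exceeded a log2 fold change of 1, and *Mlxipl* was at -0.73. None of the 8 calls and no direction of the 10 members changed in any of the 19 alternatives.

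With HYA added to the high-fat diet, the mRNA of ChREBP was higher and no enzyme of the pathway passed the test in either direction. In HYA against control mice 1 of the 10 members passed the test, *Mlxipl*, which was higher, beside 2.8% of all tested genes in either direction (1.57% higher and 1.23% lower). These 310 genes became 0 without HYA mouse 2 and in a fit of only the 2 groups, and 653 without control mouse 2. The median log2 fold change of the members was -0.10, beside 0.02 over all genes. *Mlxipl* was 57.6 ± 4.10 FPKM (SD, n = 3) in HYA-treated and 42.6 ± 4.44 FPKM in control mice, a log2 fold change of 0.43 (standard error 0.09, 95% interval 0.23 to 0.63, limma adjusted p = 0.039). That call was lost in 13 of 19 alternatives, including TPM (log2 fold change 0.31, limma adjusted p = 0.054) and leaving out any 1 mouse other than ND 1 or control 2. Its adjusted p ranged from 0.0246 to 0.159 over the alternatives, and the direction held in all 19.

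The values of 3 members did not overlap between HYA-treated and control mice, against 21.6% of all tested genes, and the same 3 had an unadjusted p under 0.05 (18.5% of all tested genes). Besides *Mlxipl* these were *Acaca* and *Scd1*, which lay lower. *Acaca* had a mean of 15.3 ± 1.76 FPKM under HYA and 19.6 ± 0.892 FPKM in control mice, with a log2 fold change of -0.34 (95% interval -0.55 to -0.13, limma adjusted p = 0.0782). *Scd1* had 5197 ± 178 FPKM under HYA and 6890.0 ± 561 FPKM in control mice, with a log2 fold change of -0.40 (95% interval -0.66 to -0.15, limma adjusted p = 0.0888). Neither passed the threshold as deposited, and both did after rescaling to TPM, at -0.48 (limma adjusted p = 0.0296) and -0.53 (adjusted p = 0.0398). TPM also moved the median of all genes, from 0.02 to -0.09, and of the genes that were changed 19.5% were higher, beside 56.1% as deposited. Relative to that median *Acaca* lay at -0.36 as deposited and -0.38 as TPM, and *Scd1* at -0.42 and -0.44.

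For the other 7 members the difference between HYA-treated and control mice was small against the spread. *Me1* (log2 fold change -0.07, 95% interval -0.28 to 0.13) and *Acly* (-0.08, -0.39 to 0.24) had the narrowest intervals of these, and *Thrsp* (0.28, -0.70 to 1.26) the widest. *Fasn* was at -0.12 (-0.54 to 0.30), *Elovl6* at -0.27 (-0.62 to 0.07), *Pnpla3* at -0.20 (-0.72 to 0.32) and *Srebf1* at 0.10 (-0.48 to 0.68). Their adjusted p-values lay between 0.389 and 0.889 (limma with Benjamini-Hochberg), which does not show that the levels were equal.

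**Figure D2:**
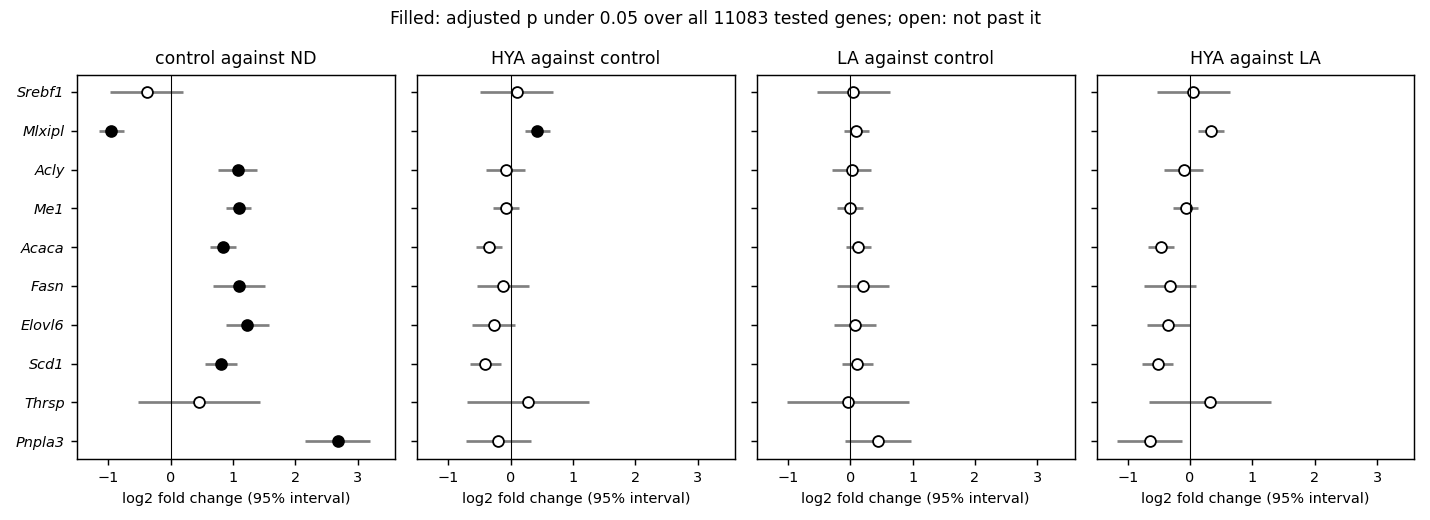
Log2 fold change with 95% interval of the 10 genes in 4 comparisons, on log2(FPKM + 1), with filled points for adjusted p under 0.05 over all 11083 tested genes and open points otherwise. In control against ND 8 points are filled and *Pnpla3* lies farthest out at 2.68, while in HYA against control only *Mlxipl* (0.43) is filled, and in both comparisons with LA none is.

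LA, the parent fatty acid, gave no difference that passed the test. In LA-treated against control mice 0 of the 10 members passed the test, as did 0 of all 11083 genes (0%), and voom on recovered fragments also called 0 genes. Of the alternatives, only the fit without a filter on low values called any, 1 gene of 26045, which was lower and not a member. At an unadjusted p under 0.05 there were 0 members, beside 2.65% of all tested genes. Log2 fold changes of the members ran from -0.03 for *Thrsp* to 0.44 for *Pnpla3* (95% interval -0.08 to 0.97), each with an adjusted p of 0.999 (limma with Benjamini-Hochberg). *Fasn* was the 1 member without overlap between these groups, at 322 ± 31.8 FPKM under LA and 279.9 ± 17.5 FPKM in control mice (log2 fold change 0.20, 95% interval -0.22 to 0.62), against 7.55% of all tested genes.

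HYA and LA differ by a hydroxyl group in place of 1 double bond and were given at the same dose and for the same time, so they were also compared with each other as 1 pair over the 10 members, with p-values adjusted over all 11083 genes. None of the members passed (0 of 10, beside 0.487% of all tested genes), whereas 5 had an unadjusted p under 0.05, against 17.2%. The log2 difference of HYA from LA was -0.47 for *Acaca* (95% interval -0.68 to -0.26, limma adjusted p = 0.0594), -0.52 for *Scd1* (-0.77 to -0.27, adjusted p = 0.0663) and 0.34 for *Mlxipl* (0.13 to 0.54, adjusted p = 0.102). *Pnpla3* followed at -0.64 (-1.17 to -0.12, limma adjusted p = 0.194) and *Elovl6* at -0.35 (-0.69 to -0.0029, adjusted p = 0.287). The values of *Mlxipl*, *Acaca*, *Scd1* and *Pnpla3* did not overlap between the HYA and LA groups, 4 of 10 against 25.2% of all tested genes. For the remaining 5 the intervals spanned 0, from -0.74 for *Fasn* at the lowest to 1.30 for *Thrsp* at the highest. *Acaca* and *Scd1* passed the threshold with voom on recovered fragments (limma adjusted p = 0.0334 and 0.0372), with TPM (0.0286 and 0.0414) and without control mouse 1 (0.0416 and 0.0465). *Acaca* alone passed without control mouse 2 (0.0419), and *Scd1* alone in a fit with the replicate number as a block (0.0439).

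HYA-treated and LA-treated mice were also compared with ND-fed mice, which are the same 3 mice as in control against ND. In HYA-treated mice 7 members were higher (8.72% of all tested genes), 1 was lower (7.85%) and 2 did not pass, 8 changed beside 16.6% of all genes, and 2 were higher with an absolute log2 fold change above 1 (1.27%), *Me1* and *Pnpla3*. In LA-treated mice 7 were higher (14.4%), 1 was lower (16.6%) and 2 did not pass, 8 changed beside 31.1%, and 5 were higher above the fold threshold (2.13%). The log2 fold changes from ND under control, HYA and LA stood at 0.81, 0.40 and 0.92 for *Scd1*, at 0.84, 0.50 and 0.97 for *Acaca*, at -0.95, -0.52 and -0.86 for *Mlxipl*, at 1.09, 1.02 and 1.09 for *Me1* and at 2.68, 2.48 and 3.13 for *Pnpla3*. The call for *Scd1* in HYA against ND (limma adjusted p = 0.0357) was lost without the filter on low values (0.291) and without ND mouse 1 (0.0832), ND mouse 3 (0.107), or HYA mouse 1 (0.0973), 2 (0.0703) or 3 (0.0912).

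Within a diet group some members deviated together and others did not. HYA mouse 3 was the highest of its group for *Srebf1*, *Acly*, *Acaca*, *Fasn*, *Elovl6* and *Thrsp*, and HYA mouse 1 was the lowest for the same 6. Control mouse 3 was the lowest of its group for 7 members, those 6 and *Me1*, and ND mouse 2 the highest of its group for all 10. Over the 12 mice, deviations from the group means of *Thrsp* and *Srebf1* had a Pearson's r of 0.94, those of *Thrsp* and *Elovl6* 0.91, and those of *Elovl6* and *Srebf1* 0.89. *Mlxipl* and *Srebf1* were at -0.66, and *Scd1* and *Pnpla3* at 0.78, while *Acly* and *Mlxipl* (-0.01), *Me1* and *Srebf1* (0.07) and *Elovl6* and *Pnpla3* (0.08) were near 0. Of the 45 pairs, 18 had an r above 0.5 and 17 lay within 0.3 of 0, with a median of 0.40. These values describe 12 mice whose members share a library and its scaling, and they carry no test. Control mouse 3 and HYA mouse 3 each turned the sign for *Srebf1* and *Thrsp* when left out. Without control mouse 3 the log2 fold change of HYA against control was -0.20 for *Srebf1* and -0.21 for *Thrsp*, and without HYA mouse 3 it was -0.14 and -0.08.

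**Figure D3:**
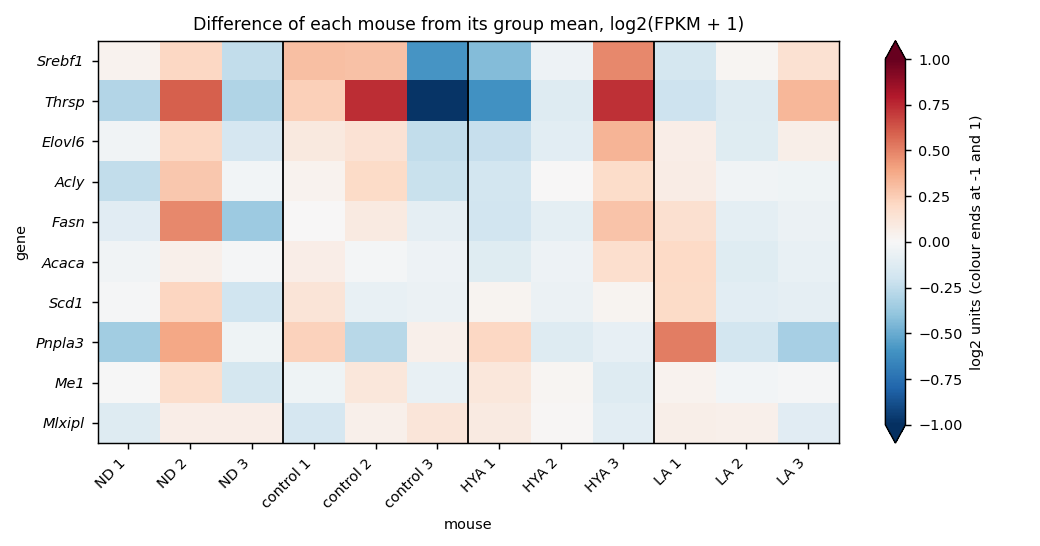
Difference of each mouse from the mean of its group on log2(FPKM + 1), genes in rows and the 12 mice in columns, red for above and blue for below the group mean, with the colour scale ending at -1 and 1. *Srebf1*, *Thrsp*, *Elovl6* and *Acly* are blue together in control mouse 3 and HYA mouse 1 and red together in HYA mouse 3.

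Of 22 regulators of SREBP-1 and ChREBP, 0 were higher and 3 were lower in control against ND (limma with Benjamini-Hochberg), beside 16.2% and 19.1% of all tested genes, so that a lower share of this list than of all genes was changed. After rescaling to TPM 7 were higher and 0 lower, beside 34.2% and 6.60% of all tested genes. The 3 were *Scap*, the escort protein that carries SREBPs to the Golgi (log2 fold change -0.46, limma adjusted p = 0.00377), *Prkaa2*, a catalytic subunit of AMP-activated kinase (-0.22, adjusted p = 0.0384), and *Nr1h3*, which encodes LXR alpha (-0.17, adjusted p = 0.0433). None of the 3 passed as TPM, where the sign of *Nr1h3* turned, and the calls of *Prkaa2* and *Nr1h3* were lost in 10 and 13 of 19 alternatives. *Srebf2*, the cholesterol-directed relative of *Srebf1*, was at 9.78 ± 0.518 FPKM in ND-fed and 10.8 ± 1.39 FPKM in control mice and did not pass (limma adjusted p = 0.283).

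Genes that supply carbon and NADPH beside *Acly* and *Me1* were higher in control mice more often than lower. Of 21 genes, 13 were higher and 1 lower in control against ND (16 and 0 as TPM), beside the same background of 16.2% and 19.1% (34.2% and 6.60% as TPM), which applies to every list that follows. Among them were *Pgd* of the pentose phosphate pathway (log2 fold change 1.04, limma adjusted p = 9.58e-06) and the cytosolic acetyl-CoA synthetase *Acss2* (0.70, adjusted p = 0.00269). The lower gene was the glycerol-3-phosphate dehydrogenase *Gpd1* (-0.41, limma adjusted p = 0.0184). Its call was lost in 5 of 19 alternatives, including TPM, with limma adjusted p up to 0.282. The median of the list was 0.26, beside -0.04 for all genes. Of these 21, *Pgd* alone passed in HYA against control, beside 2.8% of all tested genes. It was at 13.0 ± 0.963 FPKM under HYA against 17.2 ± 1.25 FPKM in control mice (log2 fold change -0.37, limma adjusted p = 0.0448). That call was lost in 12 of 19 alternatives, with adjusted p up to 0.173.

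Among related fatty acid enzymes and paralogs, 18 of 22 genes were tested, and 10 were higher and 2 lower in control against ND (12 and 1 as TPM). The largest increases were those of the desaturases of polyunsaturated fatty acids *Fads2* (log2 fold change 2.24, limma adjusted p = 6.57e-06) and *Fads1* (1.60, adjusted p = 8.01e-07) and of the elongase *Elovl5* (1.79, adjusted p = 4.04e-06). *Elovl3*, an elongase of long saturated and monounsaturated chains, went the other way, with 270.0 ± 35.3 FPKM under the normal diet and 49.2 ± 48.9 FPKM in control mice (-2.89, limma adjusted p = 0.00588). *Acacb*, the mitochondrial acetyl-CoA carboxylase 2, whose product restrains fatty acid oxidation, rose with *Acaca*, from 15.1 ± 2.23 to 38.6 ± 6.51 FPKM (1.30, limma adjusted p = 3.78e-05), and stood at 41.1 ± 3.29 FPKM under HYA. *Mid1ip1*, the relative of *Thrsp*, was lower in control (40.4 ± 4.17 FPKM) than in ND-fed mice (59.9 ± 15.03 FPKM, -0.53, limma adjusted p = 0.0223). The call of *Mid1ip1* was lost in 6 of 19 alternatives, including TPM, with limma adjusted p up to 0.166.

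Other desaturases of the Scd family contributed little beside *Scd1*, which made up 99.9% of the summed FPKM of the 4 family members in each group. *Scd2* was nevertheless the relative with a call under HYA. It was 1 of the 18 tested, both against control (2.8% of all tested genes) and against LA (0.487%). It was at 2.34, 1.90 and 2.44 FPKM in ND-fed mice, 8.88, 5.37 and 6.87 FPKM in control mice, 3.50, 3.15 and 2.84 FPKM with HYA and 7.08, 5.95 and 7.25 FPKM with LA, with no overlap between the HYA group and any other group. The log2 fold change of HYA against control was -0.93 (standard error 0.14, limma adjusted p = 0.0168) and that of HYA against LA -0.90 (adjusted p = 0.0364). The call against control was lost in a fit of only the 2 groups and without HYA mouse 2 or 3 (adjusted p up to 0.128), and that against LA in 10 of 19 alternatives. *Scd3* (0.357 to 1.08 FPKM as group means) and *Scd4* (at most 8 fragments in a mouse) were below the level tested. How fragments shared between such close relatives were assigned is not given in the sources used here, and its part in the value of *Scd2* was not tested.

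Of 10 other ChREBP targets, 3 were higher and 1 lower in control against ND (7 and 0 as TPM), beside 16.2% higher and 19.1% lower among all tested genes. The hormone gene *Fgf21* rose from 0.899 ± 0.483 to 12.0 ± 5.51 FPKM (log2 fold change 2.72, limma adjusted p = 4.82e-05) and liver pyruvate kinase, *Pklr*, by 0.35 (adjusted p = 0.0176). *Gpd1* was the lower one, with the call that was lost in 5 of 19 alternatives. Of 7 LXR targets 2 were higher, *Abcg1* (0.44, limma adjusted p = 0.00705) and *Lpcat3* (0.23, adjusted p = 0.0467), and 2 lower, *Abca1* (-0.70, adjusted p = 3.9e-05) and *Nr1h3* itself (3 and 1 as TPM), and the call of *Lpcat3* was lost in 13 of 19 alternatives.

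Of 19 cholesterol synthesis genes under SREBP-2, 12 were higher and 0 lower in control against ND (17 and 0 as TPM), beside 16.2% and 19.1% of all tested genes, led by *Sqle* (log2 fold change 1.61, limma adjusted p = 0.000101), *Mvd* (1.29, adjusted p = 0.00136) and *Dhcr7* (1.03, adjusted p = 6.27e-05). In HYA against control 0 of the 22 regulators and 0 of the 10 ChREBP targets passed, beside 2.8% of all tested genes. Likewise 0 of the 7 LXR targets and 0 of the 19 cholesterol genes passed. At that share, 0 calls in lists this short do not set them apart from other genes. In LA against control 0 genes of any list passed, beside 0% of all tested genes.

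**Figure D4:**
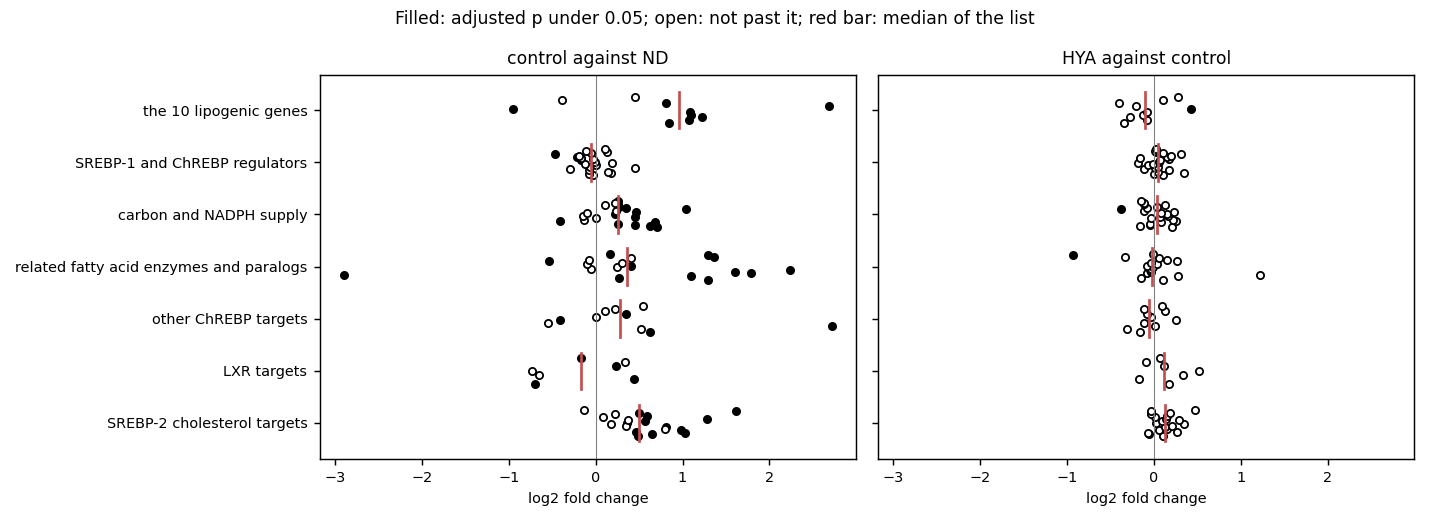
Log2 fold change of every tested gene in 7 lists of the pathway, 1 point per gene, filled for adjusted p under 0.05, with a red bar at the median of each list; the left panel is control against ND and the right panel HYA against control. On the left the median of the 10 lipogenic genes lies at 0.96 and that of the 22 regulators at -0.06, and on the right 3 points are filled in all, *Mlxipl*, *Pgd* and *Scd2*.

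Because lipogenesis follows feeding and time of day, fasting and clock genes were read in the same samples. Of 13 genes of the fasting response, 5 were higher and 0 lower in control against ND, beside 16.2% and 19.1% of all tested genes, led by *Fgf21*, *Cyp4a14* (log2 fold change 1.44, limma adjusted p = 0.00233) and *Pdk4* (1.19, adjusted p = 0.015). Of 14 clock genes tested, 0 were higher and 2 lower, *Clock* (-0.73, limma adjusted p = 0.0145) and *Nr1d1* (-0.55, adjusted p = 0.0263), and neither passed as TPM. The share of lower clock genes was under the 19.1% of all tested genes. In HYA against control and in LA against control 0 genes of either list passed, beside 2.8% and 0% of all tested genes. The feeding state and the hour at which livers were taken are not given in the sources used here, and their part in the values of the members was not tested.

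The genes whose pattern over the 12 mice was most like that of the members were found by their correlation with each member. For each member the 50 tested genes with the highest Pearson's r of log2(FPKM + 1) were taken, and *Cryz*, *Cidec*, *Mogat1* and *Plin2* were each among the 50 of 5 members and *Prg4* among those of 4. The members concerned were *Acly*, *Fasn*, *Elovl6* and *Pnpla3*, with *Acaca* for *Cryz* and *Me1* for *Cidec*, *Mogat1* and *Plin2*. None of these genes was among the 50 of *Srebf1*, *Mlxipl*, *Scd1* or *Thrsp*. Their lowest r with any member ranged from -0.94 to -0.84. *Plin2* and *Cidec* encode lipid droplet proteins, and *Mogat1* an acyltransferase of triglyceride synthesis. *Cidec* was at 8.55 ± 1.87 FPKM in ND-fed mice, 85.8 ± 16.2 FPKM in control mice, 59.3 ± 9.61 FPKM with HYA and 75.0 ± 5.66 FPKM with LA. *Mogat1* was at 1.15 ± 0.0922, 9.64 ± 0.527, 6.96 ± 1.12 and 10.3 ± 0.495 FPKM in the same order, and was lower in HYA against control (log2 fold change -0.43, limma adjusted p = 0.037), a call lost in 11 of 19 alternatives. The 12 points include the difference between the diets and share their libraries. Of these 5 genes, 3 were also among the leading 5 after rescaling to TPM and 2 with a pseudocount of 0.1. On deviations from the group means the leading genes were others, *Thumpd3*, *Emc9*, *Mapk8ip3*, *Selenoh* and *Gm19619*, each among the 50 of 3 members.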

How the data were processed

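Paired-end RNA-seq of liver from 12 mice (4 groups of 3) was analysed from 1 table with 1 column per mouse. The authors deposited FPKM values per gene, together with gene identifiers, coordinates and a gene length in bases. Submitters' processing notes name fastp, HISAT2 2.0.5, featureCounts 1.5.0-p3 and GRCm38. Annotation release, strand setting and library scaling are not given in the sources used here. The methods section gives TPM as the unit, but column totals ranged from 342146 to 429286, which TPM does not allow, and the values were treated as FPKM. Multiplied by gene length, 100% of values were whole multiples of 1 step per column (tolerance 0.05), read as 1 fragment, and depth was taken from these. FPKM replaced the counts that the design had allowed for, so the main test was made on FPKM, and fragments recovered from these steps entered only an alternative (voom).

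Genes were tested if they averaged 1 FPKM or more, on log2(FPKM + 1) with limma 3.58.1 in R 4.3.3 (all 12 mice, empirical Bayes with trend, two-sided, Benjamini-Hochberg over the tested genes of a comparison), after the code had been tested on simulated data. Python 3.11.15 with matplotlib 3.10.9 drew the figures. Alternatives were TPM, median-ratio size factors, a pseudocount of 0.1, no filter, voom on recovered fragments, a replicate block, a fit of the 2 groups compared, the additional threshold of 1 on the absolute log2 fold change, and leaving out each mouse. The members and lists were chosen with earlier results of these data known. Named besides the 10 members are, per list, up to 3 genes in each direction with the largest change past the threshold in control against ND and HYA against control, the relatives *Scd2*, *Scd3*, *Scd4*, *Mid1ip1* and *Acacb*, *Srebf2* (chosen after its values were seen), and the 5 genes most like the members, while some genes that this rule names are not reported here. Coordinates of 9 of the 10 members were identical in GENCODE M21, and those of *Scd1* differed. Marker lists are given by their summed level: endothelial markers were at 40.2 to 58.3 FPKM, macrophage markers at 187 to 297 FPKM, bile duct markers at 2.30 to 6.53 FPKM, lymphocyte markers at 0.756 to 2.02 FPKM and red blood cell markers at 260.2 to 553 FPKM over all mice.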

Additional observations from a re-analysis of the deposited data

How the results depend on the processing

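In control against ND and in LA against ND, all 190 values of the members (10 genes under 19 alternatives each) kept their direction and their side of the threshold, and in HYA against ND 184 of 190 did, the 6 others being calls of *Scd1* that were lost. With the threshold on fold change, members changed numbered 5 in control against ND, 0 in HYA against control, 2 in HYA against ND and 5 in LA against ND. In HYA against control the number went from 1 to 2 with TPM, and to 0 without a filter and in a fit of only the 2 groups compared, and it was 0 to 1 with 1 mouse left out. In HYA against LA it went from 0 to 2 with TPM, to 1 with the replicate block and to 2 with voom, and it was 0 to 2 with 1 mouse left out, when all genes changed in that comparison numbered 0 to 259. The causes were not tested.

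The signs that turned were those of small differences. With TPM, *Srebf1* went to -0.024 in HYA against control and to -0.067 in HYA against LA on the log2 scale. With 1 mouse left out, HYA against control ranged from -0.20 to 0.32 for *Srebf1*, from -0.19 to 0.021 for *Acly* and from -0.21 to 0.65 for *Thrsp*. LA against control ranged from -0.25 to 0.20 for *Srebf1*, from -0.090 to 0.12 for *Acly*, from -0.041 to 0.054 for *Me1*, from -0.048 to 0.15 for *Elovl6* and from -0.52 to 0.34 for *Thrsp*, and HYA against LA from -0.19 to 0.27 for *Srebf1* and from -0.048 to 0.62 for *Thrsp*.

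The labels do not say that a replicate number joins mice of different groups. Of 18 same-numbered pairs of groups, 3 had a correlation of deviations above 0.1 (range -0.40 to 0.29), which cannot exclude pairing. A replicate block changed no call of a member other than *Scd1* in HYA against LA. Over all tested genes, the block raised the calls from 54 to 258 in HYA against LA and from 310 to 449 in HYA against control. It lowered them in each comparison with ND. With 3 mice per group, the intervals given set the precision of each difference, and *Pnpla3* in ND-fed mice rests on 9 to 30 fragments.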
